A study of Mus musculus with 11 samples.

Results

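The interferon response genes are 39 mouse genes that interferons are known to induce or that carry the interferon signal in the cell. They were taken by name, and every array probe whose annotated symbol equals 1 of the names was collected. This gave 74 probes for 38 of the genes, since no probe was listed for Ifi44. A probe was tested where its detection p-value, which sets its brightness against the array's negative controls, was under 0.05 on at least 3 arrays. That kept 49 probes of 33 genes, out of 22856 tested probes and 12179 tested genes with a single symbol. Of the 49 probes, 44 were detected on all 11 arrays. For Ifit1, Mx1, Oas1a, Iigp1 and Xaf1 no probe reached a detection p-value under 0.05 on any array, so these 5 genes have no tested value.

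The RNA came from whole kidney tissue of 11 female mice aged 8 weeks, hybridised to Illumina mouse bead arrays with 1 array per mouse. Cldn16 encodes claudin-16, a protein between the cells of the thick ascending limb that lets magnesium and calcium be taken back from the urine. The 4 WT mice were Cldn16 +/+, the 3 Het mice were Cldn16 +/-, and the 4 KO mice were Cldn16 -/-. All shared a mixed background, given as 129S7/SvEvBrd-Hprtb-m2 in F2 with 1 backcross to C57BL/6N, and standard food after weaning. The poles were cut from each kidney before RNA extraction. The labels do not describe how the targeted allele was built. The mice are numbered within a genotype in the order of their records, and the numbers pair no animals. The arrays lay on 2 slides: slide 1 held WT 1 and 2, Het 1 and 2, and KO 1 and 2, and slide 2 held the others. Postnatal day 59 was recorded for WT 1, WT 2, Het 1 and KO 1 and day 58 for the other 7 mice, so day 59 occurs on slide 1 alone.

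Cells release interferons when they sense viral or bacterial nucleic acid. Type I and type III interferons act through the kinases JAK1 and TYK2 and induce genes through the interferon-stimulated response element (ISRE), whereas interferon gamma acts mainly through the gamma-activated site (GAS). The induced proteins block viral replication, tag proteins with the ubiquitin-like ISG15, disrupt the vacuoles of intracellular pathogens, and load peptides on class I molecules. Many of the genes are also transcribed at a basal level in uninfected tissue.

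Promoter sequence was not used to choose the genes, and the windows shown here let a reader see the elements through which they are known to respond. The RefSeq promoter table (GRCm38.p6, 250 bases before to 50 after each start site) held 30 of the 39 genes. Both strands were searched for the ISRE core, GAAA and GAAA with any 2 bases between them (TTTC and TTTC on the other strand), and for the GAS core, TTC and GAA with any 3 bases between them, which reads the same on both strands. The ISRE core occurred in 15 of the 30 genes, or 50%, against 1079 of all 27025 genes in the table, or 3.99%. The GAS core occurred in 8 of the 30 genes, or 26.7%, against 9.55% of all genes. Where the cores overlap, as in Bst2, both are counted. The windows below run 5′ to 3′ on the gene's strand, with the cores in capitals, and show the genes with a core whose values on every array are given later, Igtp and Irf1, each with a probe whose KO and WT values did not overlap, Isg15 as a well-known target, and Ifit1 as a gene that was not detected here.
Isg15, chr4:156200860-156200911, minus strand: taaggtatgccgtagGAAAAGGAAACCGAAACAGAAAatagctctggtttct
Ifit1, chr19:34640770-34640828, plus strand: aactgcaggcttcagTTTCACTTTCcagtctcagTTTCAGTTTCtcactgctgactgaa
Bst2, chr8:71537572-71537623, minus strand: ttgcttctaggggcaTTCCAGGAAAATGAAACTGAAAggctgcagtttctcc
Irgm1, chr11:48871420-48871465, minus strand: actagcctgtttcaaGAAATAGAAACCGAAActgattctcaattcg
Igtp, chr11:58199496-58199546, plus strand: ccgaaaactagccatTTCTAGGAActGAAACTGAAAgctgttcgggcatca
Gbp2, chr3:142620589-142620628, plus strand: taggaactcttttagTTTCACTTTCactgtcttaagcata
Gbp3, chr3:142559984-142560029, plus strand: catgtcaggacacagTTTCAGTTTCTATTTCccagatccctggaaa
Cxcl10, chr5:92349078-92349117, minus strand: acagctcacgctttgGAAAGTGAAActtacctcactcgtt
Ifih1, chr2:62646206-62646238, minus strand: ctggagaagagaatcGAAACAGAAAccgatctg
Ifitm3, chr7:141010701-141010757, minus strand: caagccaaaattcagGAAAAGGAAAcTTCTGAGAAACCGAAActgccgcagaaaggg
Irf1, chr11:53769909-53769947, plus strand: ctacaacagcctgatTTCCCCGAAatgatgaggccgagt
Psmb8, chr17:34198083-34198121, plus strand: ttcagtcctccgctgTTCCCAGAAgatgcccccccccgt
Isg15 holds 3 overlapping ISRE cores, Ifit1 holds 2 separate ones, and Irf1 and Psmb8 hold a GAS core with no ISRE core. In the window of Ube2l6 neither set of letters occurs. Among the tested genes the ISRE core was present in 13 of 26, and it was present in 2 of the 4 untested genes that the table holds.

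Each array had between 20597 and 22108 probes with a detection p-value under 0.05. Values are log2 intensities after background correction and quantile normalisation, with 16 units added to every intensity before the logarithm, so that differences of dim probes are understated. The probe for Cldn16 read 9.60, 9.16, 9.67 and 9.58 in WT kidneys 1 to 4, 9.27, 9.37 and 9.36 in Het kidneys 1 to 3, and 9.34, 8.58, 8.85 and 9.14 in KO kidneys 1 to 4. All KO values were below the WT mean, but KO overlapped both other genotypes, with a KO minus WT difference of -0.53 (adjusted p = 0.227, limma), and the labels do not place this probe inside or outside the targeted part. Arrays KO 1, KO 4 and Het 3 stood apart in adipose markers, whose mean level lay 1.44 to 1.72 above the WT mean on the log2 scale, against -0.95 to 0.31 on the other 8 arrays. In whole kidney, fewer cells of a type and less RNA per cell cannot be told apart.

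No interferon response gene passed the adjusted threshold in any of the 3 genotype comparisons. In KO against WT kidneys 0 of the 49 probes had an adjusted p under 0.05 in the limma fit (0.0394% of all tested probes did, or 9 probes). At an unadjusted p under 0.05 the count was 11 of 49 lower in KO, where 6.17% of all tested probes were lower, and 0 of 49 higher, where 6.72% were higher (12.9% in either direction). The 11 probes belong to 8 genes: Bst2, Gbp3, Igtp, Irf1, Irgm1, Psmb8, Ube2l6 and Zbp1. Irf1 and Gbp3 each gave more than 1 of these probes. By the probe of each gene that was brightest on average, 6 of 33 genes were lower, without Irf1 and Psmb8, and 0 of 33 were higher. The shares over all tested probes count probes, not genes. Without the 3 arrays high in adipose markers, which left KO 2, KO 3, Het 1 and Het 2 beside the 4 WT arrays, the counts were 5 lower and 2 higher of 48. The shares of all probes were then 6.65% lower and 6.08% higher. With a median shift per array in place of quantile normalisation the counts were 3 lower and 3 higher of 49. That scaling moved the share of all probes to 1.88% lower and 11.8% higher. Leaving out 1 array at a time gave 7 to 11 probes lower and 0 or 1 higher, beside 4.06% to 6.25% of all probes lower and 5.01% to 6.99% higher.

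The KO and WT values did not overlap for 5 probes that were lower in KO (3.45% of all tested probes), from Igtp, Irf1, Irgm1, Psmb8 and Ube2l6. For Irf1 and Psmb8 this was a further probe, and their brightest probes overlapped. The further probes of Irgm1 and Ube2l6 overlapped between KO and WT, with differences of -0.15 and 0.091. The KO and WT values did not overlap for 1 probe that was higher in KO (3.68% of all), from Ddx58. For the brightest probe of Ube2l6 all KO values lay below all Het values and all Het values below all WT values. This order was found for 9 of all 22856 probes (0.0394%), and the further Ube2l6 probe did not show it. No probe of the set showed the opposite order (0.0569% of all). Igtp, Irf1, Ddx58 and the other genes named from these counts outside the rule for named genes were named after their values were seen.

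With 1 probe per gene, the brightest on average, 22 of the 33 genes had a lower mean in KO than in WT kidneys and 11 a higher one. The median KO minus WT difference was -0.083 on the log2 scale, beside 0.00238 over all 12179 tested genes, 50.5% of which were higher in KO. Without WT 3 the median of the 33 genes was -0.034, and without the 3 arrays high in adipose markers it was -0.15. The differences ranged from -0.68 for Bst2 to 0.20 for Ifit2. The scaling by a median shift per array raised the median of all genes to 0.11 and that of the 33 genes to 0.055.

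Het against WT kidneys gave 0 of 49 probes at an adjusted p under 0.05 (0% of all tested probes, limma). At an unadjusted p under 0.05 it gave 4 lower in Het (3.07% of all) and 0 higher (3.68% of all), from Gbp3, Ube2l6 and Oasl2, where 6.75% of all tested probes reached that p in either direction. By the brightest probe 3 of 33 genes were lower. Het values lay wholly below WT for 5 probes, of Cxcl10, Irf9, Oasl2, Psmb8 and Ube2l6 (3.37% of all), and wholly above for 0 (3.35% of all). For Irf9 and Psmb8 this was a further probe, and their brightest probes overlapped, with Het minus WT differences of -0.11 and 0.24. The further probes of Cxcl10, Oasl2 and Ube2l6 overlapped as well, at 0.0066, -0.14 and 0.37. By gene, 27 of 33 were lower and 6 higher in Het, where 47.9% of all 12179 tested genes were higher. The median difference was -0.15 beside -0.00824 over all genes. Without Het 3 that median was -0.066 and without the 3 arrays high in adipose markers it was -0.065. The Het and KO comparisons share the 4 WT arrays, and their values are therefore given side by side only.

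KO against Het kidneys gave 0 of 49 probes at an adjusted p under 0.05 (0% of all, limma). At an unadjusted p under 0.05, 4 probes of Irf1, Irgm1 and Ube2l6 were lower in KO (2.65% of all) and 2 probes, of Mx2 and Oasl2, were higher (2.79% of all), where 5.44% of all tested probes reached that p in either direction. By the brightest probe 2 of 33 genes were lower, Irgm1 and Ube2l6, and 2 were higher. KO values lay wholly below Het for 3 probes, of Irf1, Irgm1 and Ube2l6 (3.01% of all), and wholly above for Mx2 (3.18% of all). For Irf1 this was a further probe, and its brightest probe overlapped. The further probes of Irgm1, Oasl2 and Ube2l6 overlapped as well, with KO minus Het differences of 0.0084, -0.093 and -0.28. By gene, 17 of 33 were higher and 16 lower in KO, where 52.4% of all tested genes were higher. The median was 0.025 beside 0.00907 over all genes. That median turned to -0.013 without KO 4, -0.0030 without Het 3, -0.041 within slide 1 and -0.059 without the 3 arrays high in adipose markers.

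**Figure D1:**
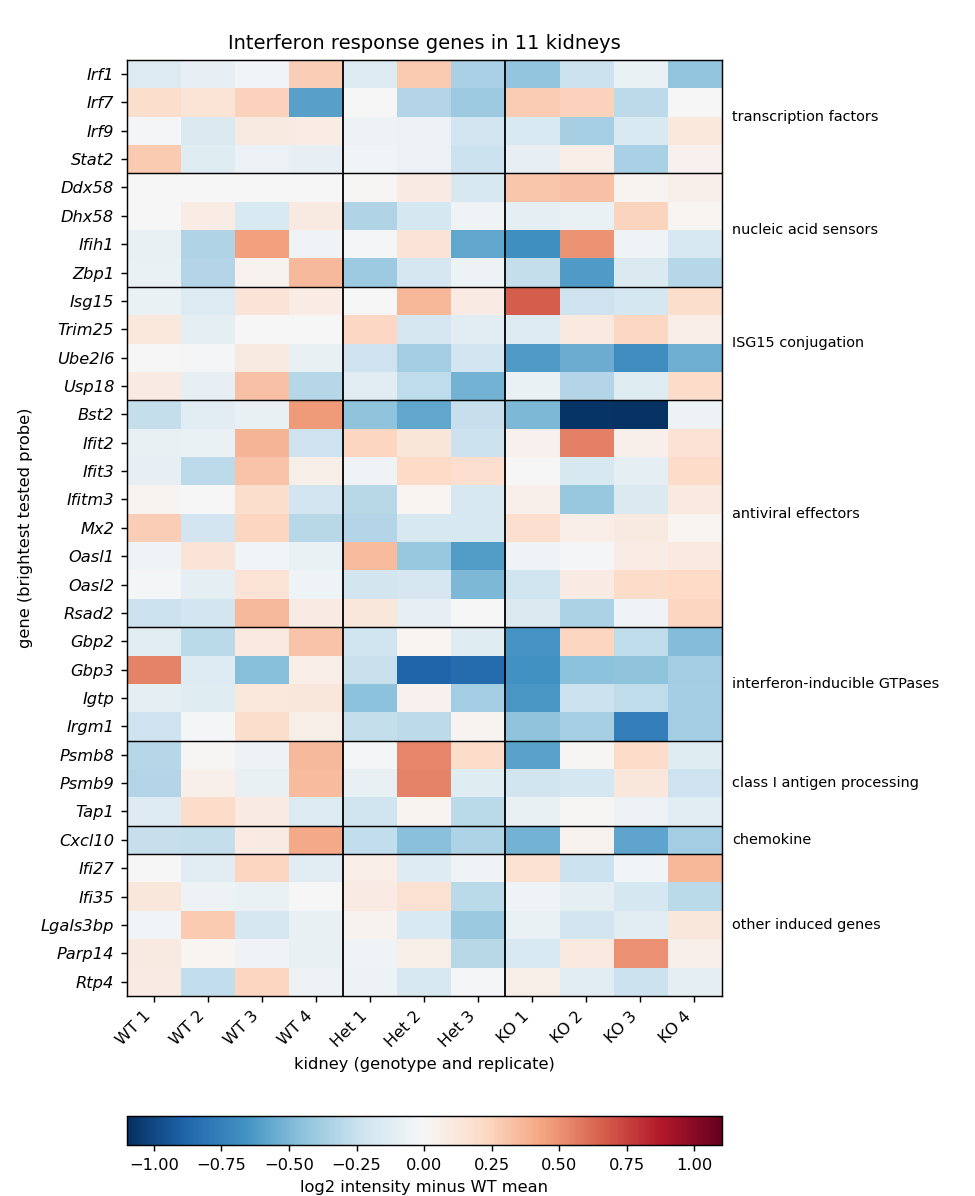
Log2 intensity minus the WT mean for the brightest tested probe of the 33 interferon response genes (rows, grouped by role) on each of the 11 arrays (columns); blue is lower and red higher than the WT mean. The 4 GTPase rows are mostly blue in the KO columns, Ube2l6 is blue in every KO column, and the Isg15 and Rsad2 rows show both colours among the KO columns.

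Among the transcription factors, Stat2 and Irf9 are partners in the complex that binds the ISRE, Irf7 amplifies type I interferon production, and Irf1 drives many genes induced by interferon gamma. None of the 4 passed the test in either direction, and their median KO minus WT difference was -0.12. Irf1 had 4 tested probes, with KO minus WT differences of -0.29, -0.32, -0.38 and -0.37 and adjusted p-values from 0.277 to 0.433. Its brightest probe ranged from 10.10 to 10.52 in WT, 9.89 to 10.54 in Het and 9.81 to 10.18 in KO kidneys, so that the groups overlapped. Correlations between pairs of the 4 probes over the arrays were 0.48 to 0.77, which describes how far they read the same signal. Irf7 read 5.87, 5.82, 5.93 and 5.08 in WT kidneys 1 to 4, 5.68, 5.35 and 5.27 in Het kidneys 1 to 3, and 5.95, 5.93, 5.38 and 5.66 in KO kidneys 1 to 4. WT 4 was the lowest of all arrays, and the KO minus WT difference was 0.059 ± 0.19 (SE; adjusted p = 0.925, limma), which was -0.14 without WT 4. Irf9 had probes at -0.15 and -0.28 KO minus WT, and Stat2 differed by -0.083.

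The cytosolic sensors bind foreign nucleic acid: Ddx58 encodes RIG-I and Ifih1 encodes MDA5, both sensors of viral RNA, Dhx58 encodes their relative LGP2, and Zbp1 senses left-handed nucleic acid. None of the 4 genes passed the test in either direction. Dhx58 had probes at 0.025 (the brightest) and -0.17 KO minus WT, with a correlation of -0.023 between them over the arrays. Ifih1 read 5.34, 5.09, 5.87 and 5.39 in WT kidneys 1 to 4, 5.41, 5.56 and 4.85 in Het kidneys 1 to 3, and 4.75, 5.92, 5.38 and 5.25 in KO kidneys 1 to 4, and was detected on 9 of the 11 arrays. The values spread more within each genotype than between genotypes, and KO minus WT was -0.10 ± 0.24 (SE; adjusted p = 0.891, limma). Ddx58 was the gene whose KO values all lay above WT, with 7.70 to 7.72 in WT and 7.74 to 8.04 in KO kidneys, a difference of 0.18 ± 0.11 (SE; adjusted p = 0.503, limma). Zbp1 differed by -0.34 ± 0.15 (SE; adjusted p = 0.374, limma) with overlapping groups.

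The enzymes and modifier of ISG15 conjugation are Isg15 itself, the E2 enzyme Ube2l6 that receives it, the E3 ligase Trim25, and the protease Usp18 that removes it. None passed the adjusted threshold, and Ube2l6 came closest of all 33 genes in KO against WT. Ube2l6 read 6.10, 6.07, 6.19 and 6.01 in WT kidneys 1 to 4, 5.86, 5.71 and 5.88 in Het kidneys 1 to 3, and 5.47, 5.54, 5.41 and 5.55 in KO kidneys 1 to 4. The group means were 6.09 ± 0.075 in WT (SD, n = 4), 5.82 ± 0.094 in Het (SD, n = 3) and 5.49 ± 0.067 in KO kidneys (SD, n = 4), and the 3 genotypes did not overlap. KO minus WT was -0.60 ± 0.095 (SE; adjusted p = 0.0531, limma), Het minus WT was -0.27 ± 0.10 (SE; adjusted p = 0.708, limma) and KO minus Het was -0.32 ± 0.10 (SE; adjusted p = 0.889, limma). Within slide 1 KO minus WT was -0.58 and within slide 2 it was -0.61. Over the alternative settings, leaving aside slide 2 with its lone Het kidney, the adjusted p ranged from 0.0358 to 0.315 (slide 1 alone, limma). Of the 26 alternatives, 3 put it under the threshold: the stricter detection filter (0.0482), no filter on dim probes (0.0477) and array weights (0.0358). KO minus WT shrank to -0.32 with no background correction (adjusted p = 0.101, limma) and with the authors' processed values (adjusted p = 0.100, limma). It was -0.37 with an offset of 50 (adjusted p = 0.0719, limma), so the size of the difference depended on the background step. With 1 array left out it was -0.63 to -0.57. A further probe for Ube2l6 did not follow the first: its KO minus WT difference was 0.091, its correlation with the first over the 11 arrays was -0.095, and the mean of both probes gave -0.25.

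Isg15 was lowest in KO 2 at 5.56 and highest in KO 1 at 6.46, so the KO range spanned every WT and Het value, and KO minus WT was 0.11 ± 0.18 (SE; adjusted p = 0.834, limma). Usp18 differed by -0.081 and Trim25 by 0.064 KO minus WT, with a further Trim25 probe at 0.38. Isg15 and the brightest probe of its E2 enzyme had differences of opposite sign.

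**Figure D2:**
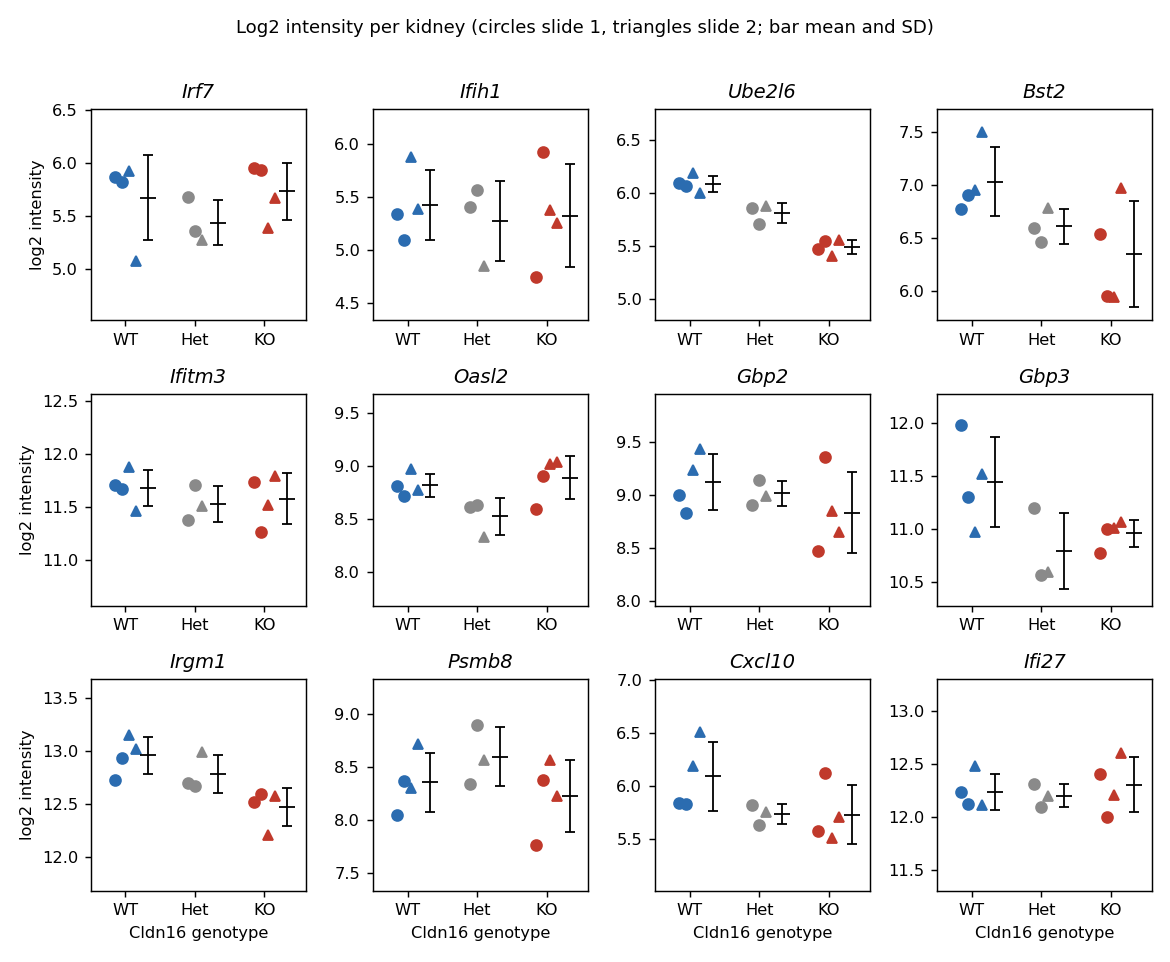
Log2 intensity of the 12 interferon response genes that the rule for named genes picked, by Cldn16 genotype; circles are arrays on slide 1 and triangles slide 2, and bars give the mean and SD of each genotype (n = 4, 3 and 4). Each panel spans the same height of 2 log2 units. By the brightest probe of each gene, Ube2l6 lies at 3 separate levels, while the groups overlap for Irf7, Ifih1, Ifitm3, Gbp2 and Ifi27.

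Several of the genes grouped as antiviral effectors act directly on viruses. Bst2 encodes tetherin, which holds budding virions at the cell surface, and Ifitm3 blocks entry. Ifit2 and Ifit3 belong to a family of proteins that bind viral RNA, and Rsad2 encodes viperin. Mx2 is a dynamin-like GTPase, and Oasl1 and Oasl2 are related to the oligoadenylate synthetases. In KO against WT 4 of the 8 tested genes were higher and 4 lower, with a median of 0.00521 and none past the threshold. Bst2 read 6.77, 6.91, 6.95 and 7.51 in WT kidneys 1 to 4, 6.59, 6.46 and 6.79 in Het kidneys 1 to 3, and 6.54, 5.96, 5.94 and 6.98 in KO kidneys 1 to 4. KO 2 and KO 3 were the lowest arrays, while KO 4 reached into the WT range. KO minus WT was -0.68 ± 0.22 (SE; adjusted p = 0.254, limma), the farthest from 0 in the set, and it was -0.59 on slide 1, -0.77 on slide 2 and -1.09 without the 3 arrays high in adipose markers. Het minus WT for Bst2 was -0.42.

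Ifitm3 read 11.70, 11.67, 11.87 and 11.46 in WT kidneys 1 to 4, 11.37, 11.70 and 11.50 in Het kidneys 1 to 3, and 11.74, 11.26, 11.52 and 11.79 in KO kidneys 1 to 4. All 3 genotypes overlapped, and KO minus WT was -0.10 ± 0.14 (SE; adjusted p = 0.789, limma). Oasl2 read 8.80, 8.72, 8.97 and 8.77 in WT kidneys 1 to 4, 8.61, 8.63 and 8.32 in Het kidneys 1 to 3, and 8.59, 8.91, 9.02 and 9.03 in KO kidneys 1 to 4. Every Het value lay below every WT value, and KO overlapped both: Het minus WT was -0.29 ± 0.13 (SE; adjusted p = 0.733, limma), KO minus Het was 0.36 ± 0.13 (SE; adjusted p = 0.889, limma) and KO minus WT was 0.073. The further Oasl2 probe gave -0.23 KO minus WT, and the mean of both gave -0.079. Mx2, on chromosome 16 with Cldn16, Parp14 and Rtp4, ranged from 4.95 to 5.52 in WT, 4.93 to 5.07 in Het and 5.27 to 5.43 in KO kidneys. KO values of Mx2 lay inside the WT range and wholly above Het. Ifit2, Ifit3, Oasl1 and Rsad2 had KO minus WT differences of 0.20, -0.020, 0.031 and -0.079.

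The GTPases induced by interferon, the guanylate-binding proteins Gbp2 and Gbp3 and the immunity-related GTPases Irgm1 and Igtp, attack or regulate the vacuoles of intracellular pathogens. All 4 tested genes of these families had lower means in KO than in WT, from -0.29 to -0.49 with a median of -0.43. None passed the adjusted threshold. The Het minus WT differences of the 4 genes were also all below 0, with a median of -0.22. Mx2, a GTPase placed with the antiviral effectors, differed by 0.093 KO minus WT and by -0.23 Het minus WT. Irgm1 read 12.73, 12.94, 13.15 and 13.02 in WT kidneys 1 to 4, 12.70, 12.67 and 12.99 in Het kidneys 1 to 3, and 12.52, 12.59, 12.21 and 12.57 in KO kidneys 1 to 4. By its brightest probe all KO values lay below all WT and Het values, while Het overlapped WT. For Irgm1 KO minus WT was -0.49 ± 0.13 (SE; adjusted p = 0.195, limma) and KO minus Het was -0.31 ± 0.14 (SE; adjusted p = 0.892, limma). The KO minus WT value was -0.28 within slide 1 and -0.69 within slide 2. A further Irgm1 probe gave -0.15 KO minus WT and 0.0084 KO minus Het, and its KO values overlapped both other genotypes.

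Gbp3 read 11.99, 11.30, 10.97 and 11.52 in WT kidneys 1 to 4, 11.20, 10.57 and 10.59 in Het kidneys 1 to 3, and 10.77, 10.996, 11.004 and 11.06 in KO kidneys 1 to 4. WT 1 was the highest array and WT 3 lay within the KO range, so KO and WT overlapped. For Gbp3 KO minus WT was -0.48 ± 0.20 (SE; adjusted p = 0.333, limma) and Het minus WT was -0.66 ± 0.21 (SE; adjusted p = 0.661, limma). The further Gbp3 probe gave -0.52 and -0.55 for the same comparisons, with a correlation of 0.85 between the probes, and within slides KO minus WT was -0.76 and -0.21. Gbp2 read 9.01, 8.84, 9.24 and 9.44 in WT kidneys 1 to 4, 8.91, 9.15 and 8.99 in Het kidneys 1 to 3, and 8.48, 9.36, 8.85 and 8.66 in KO kidneys 1 to 4. KO 2 was among the highest of all arrays and KO 1 the lowest, and KO minus WT was -0.29 ± 0.18 (SE; adjusted p = 0.516, limma), with -0.000386 within slide 1 and -0.59 within slide 2. Igtp ranged from 8.36 to 8.62 in WT and 7.85 to 8.26 in KO kidneys without overlap, with a difference of -0.38 ± 0.14 (SE; adjusted p = 0.282, limma).

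Psmb8 and Psmb9 encode inducible subunits of the immunoproteasome and Tap1 a subunit of the peptide transporter, and all 3 lie in the major histocompatibility region of chromosome 17. None passed the test. Psmb8 read 8.04, 8.37, 8.30 and 8.72 in WT kidneys 1 to 4, 8.34, 8.90 and 8.56 in Het kidneys 1 to 3, and 7.77, 8.37, 8.56 and 8.22 in KO kidneys 1 to 4. Het 2 was the highest array and KO 1 the lowest, the genotypes overlapped, and KO minus WT was -0.13 ± 0.19 (SE; adjusted p = 0.813, limma). The further Psmb8 probe gave -0.33 with no overlap between KO and WT, and the first was 0.11 without the 3 arrays high in adipose markers. Psmb9 differed by -0.13 and Tap1 by -0.064 KO minus WT, and Psmb8 and Psmb9 varied together over the arrays (r = 0.83).

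Cxcl10 encodes a chemokine that draws activated T cells. It read 5.84, 5.83, 6.19 and 6.51 in WT kidneys 1 to 4, 5.82, 5.63 and 5.75 in Het kidneys 1 to 3, and 5.57, 6.13, 5.51 and 5.71 in KO kidneys 1 to 4. WT 3, WT 4 and KO 2 were the highest arrays, every Het value lay below every WT value, and KO minus WT was -0.36 ± 0.17 (SE; adjusted p = 0.39, limma). Within slide 1 that difference was 0.014 and within slide 2 it was -0.74, and a further, dimmer probe gave 0.22.

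Of the other induced genes, Ifi27 encodes a small hydrophobic membrane protein, Lgals3bp a secreted glycoprotein that binds galectin-3, Parp14 an ADP-ribosyltransferase, and Rtp4 a chaperone of receptor transport. Ifi27 read 12.24, 12.12, 12.48 and 12.12 in WT kidneys 1 to 4, 12.31, 12.10 and 12.20 in Het kidneys 1 to 3, and 12.41, 11.999, 12.21 and 12.61 in KO kidneys 1 to 4. The groups overlapped, KO 4 was the highest array, and KO minus WT was 0.066 ± 0.14 (SE; adjusted p = 0.876, limma). Its further probe gave 0.18 and correlated with the first at 0.93. Ifi35, Lgals3bp, Parp14 and Rtp4 had KO minus WT differences of -0.16, -0.069, 0.13 and -0.097, none past the threshold.

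**Figure D3:**
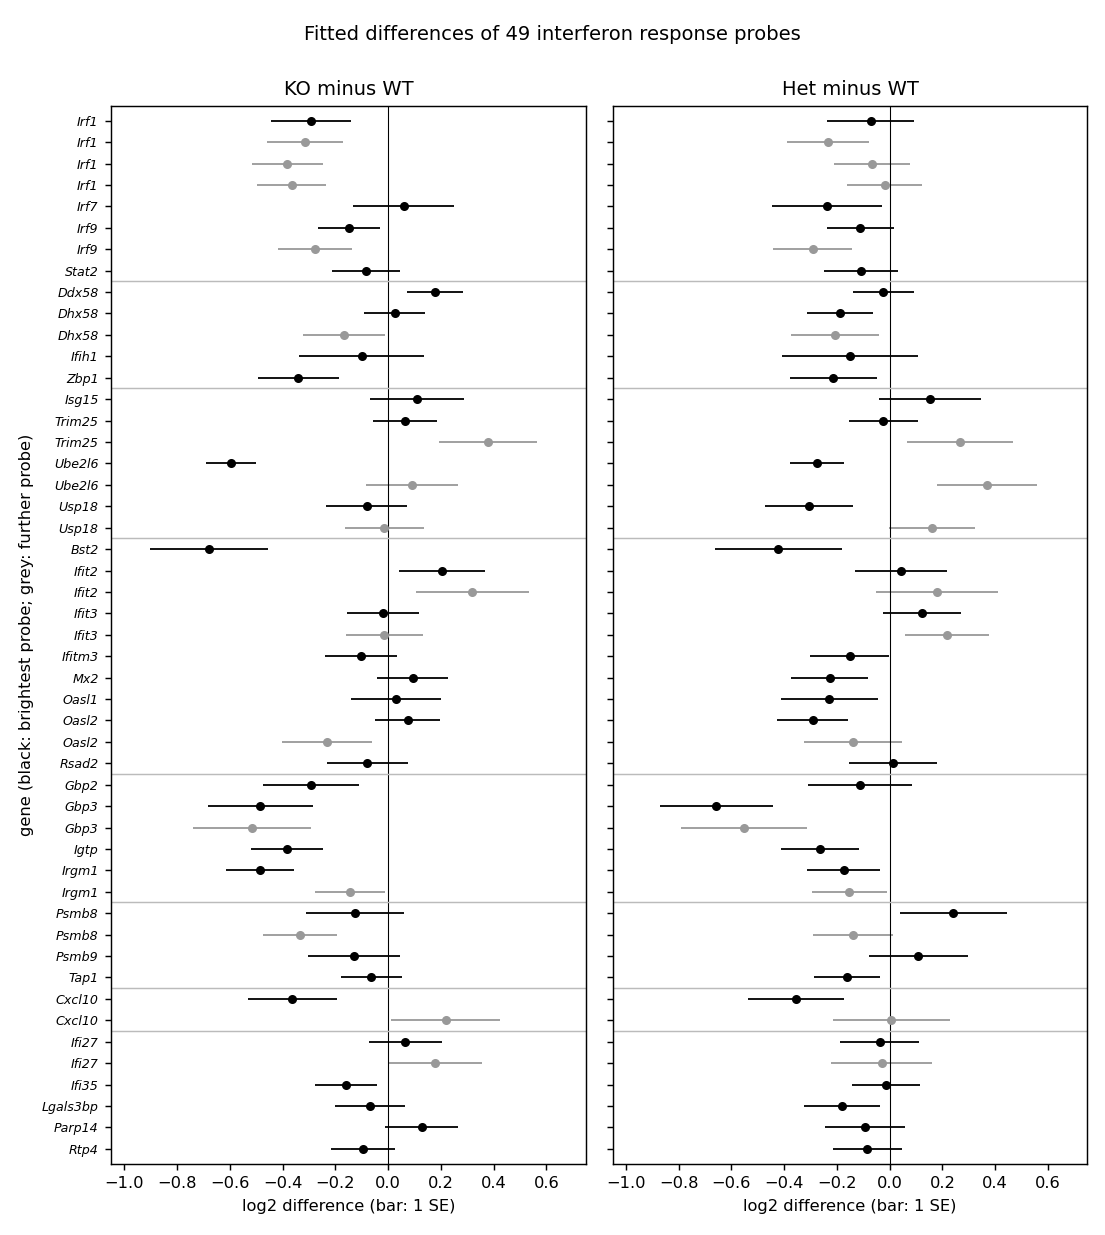
Fitted log2 differences, KO minus WT (left) and Het minus WT (right), of the 49 tested probes in order of role, with bars of 1 SE; black marks the brightest probe of a gene and grey a further probe. The GTPase probes and the 4 Irf1 probes lie left of 0 in both panels, and the 2 probes of Ube2l6 lie on opposite sides of 0.

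An array score, the mean over the 33 genes of log2 intensity minus the WT mean, described how the set varied between kidneys. It ran from -0.084 to 0.085 in WT, from -0.23 to -0.077 in Het and from -0.18 to -0.063 in KO kidneys, so that KO overlapped both other genotypes. The KO minus WT difference of the score was -0.13, or -0.095 within slide 1 and -0.16 within slide 2, and no test is given for it. For the 4 GTPases Gbp2, Gbp3, Irgm1 and Igtp alone the score was -0.15 to 0.14 in WT, -0.34 to -0.28 in Het and -0.60 to -0.20 in KO kidneys. Every Het and KO kidney lay below every WT kidney. This group was formed with earlier results of these data known, and how often other groups of 4 genes separate in this way was not tested. For the 8 antiviral effectors, Mx2 among them, the score was -0.11 to 0.19 in WT and -0.16 to 0.12 in KO kidneys.

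The 33 genes varied together only loosely. Over the 528 pairs of genes the median Pearson correlation across the 11 arrays was 0.112, beside 0.000646 over all pairs of tested genes, and 11.7% of pairs exceeded 0.5 beside 7.66%. The closest pairs were Irf1 with Psmb9 (r = 0.87), Ube2l6 with Irgm1 (0.87), Psmb8 with Psmb9 (0.83) and Irf1 with Igtp (0.83). The most opposed pair was Irf7 with Psmb8 (-0.78). Pairs share arrays, normalisation and genotype, and the correlations are a description.

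Outside all gene lists, the gene whose level most resembled the score was Bco2, which encodes a carotenoid-cleaving enzyme (Pearson r = 0.905, Spearman rho = 0.927 over 11 arrays). Without WT 3 and Het 3, the arrays farthest from the median score, its r was 0.804. The next were Sugt1 (0.895), Pcdhga7 (0.864), Kcnj14 (0.861), Aif1 (0.861), Cutc (0.860), Sec22c (0.850), Las1l (0.847), Smc3 (0.842) and B4galnt3 (0.840). Without those 2 arrays the 10 values ranged from 0.533 for Smc3 to 0.874 for Aif1. The 10 genes were picked by this correlation from all tested genes outside the lists, on the same arrays. The choice itself makes their values high, and they are no evidence of a link to the set.

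**Figure D4:**
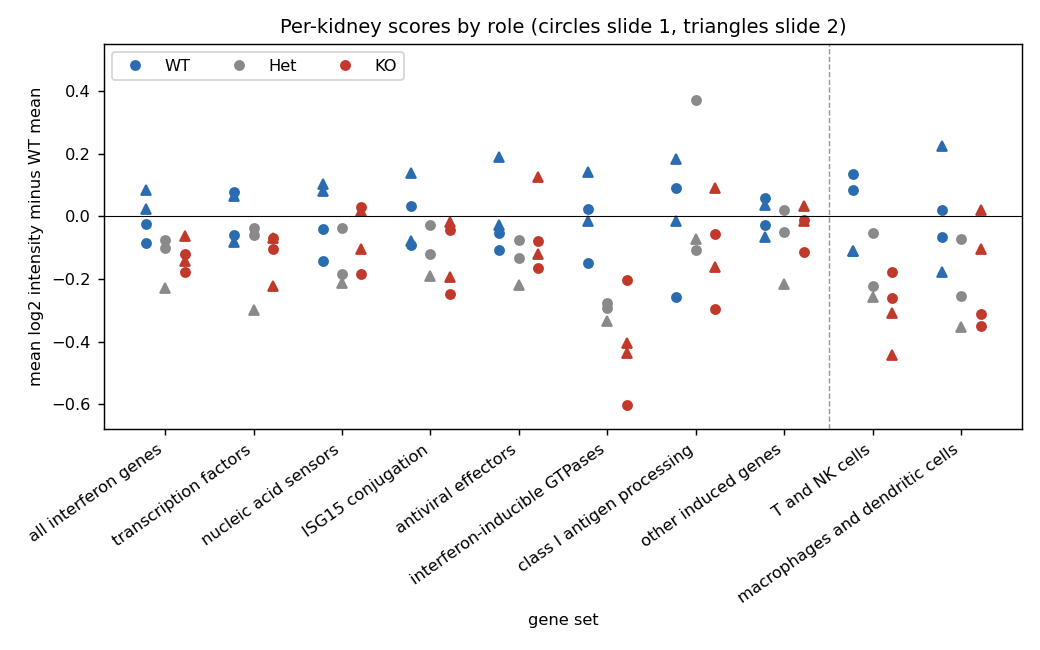
Mean log2 intensity minus the WT mean per kidney for all 33 interferon response genes, for each role with more than 1 gene, and, right of the dashed line, for markers of T and NK cells and of macrophages and dendritic cells; circles are slide 1 and triangles slide 2. The GTPase scores of Het and KO kidneys all lie below those of WT, and T and NK markers lie lower in every KO kidney than in every WT kidney, with KO and Het overlapping.

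Of the pathway upstream, 15 interferon and receptor genes had a probe and 7 were tested. Ifna2, Ifna4, Ifna5, Ifnb1, Ifng, Ifnk, Ifnl3 and the receptor subunit Ifnar1 were not detected. None of the 7 passed the adjusted threshold. Ifna1, a type I interferon, read 5.14, 5.47, 5.41 and 5.36 in WT kidneys 1 to 4, 4.80, 5.19 and 5.15 in Het kidneys 1 to 3, and 4.82, 4.98, 4.79 and 4.75 in KO kidneys 1 to 4. It was named for its small p-value in the pathway lists. All 4 KO values were below every WT value, as for 3.45% of all tested probes. KO minus WT was -0.51 ± 0.12 (SE; adjusted p = 0.177, limma) and Het minus WT was -0.30 ± 0.13 (SE; adjusted p = 0.724, limma). Ifna1 was detected in 4 of 4 WT, 2 of 3 Het and 1 of 4 KO kidneys, so most KO values were close to background. A further Ifna1 probe was detected in 0 of 4 KO kidneys, so it could pass the detection filter only through WT and Het arrays.

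Of 24 signalling genes 20 were tested, among them the kinases Jak1 and Tyk2 and the adaptor Mavs, and none passed the adjusted threshold (6 higher and 14 lower in KO, median -0.033). Stat3, a transcription factor downstream of cytokine receptors, read 10.16, 10.38, 9.71 and 9.79 in WT kidneys 1 to 4, 9.60, 9.47 and 9.77 in Het kidneys 1 to 3, and 9.76, 9.77, 9.53 and 9.64 in KO kidneys 1 to 4. WT 1 and WT 2 were the highest arrays, and Het minus WT was -0.40 ± 0.16 (SE; adjusted p = 0.715, limma). Irf2, which competes with Irf1 for its sites, had a Het minus WT difference of -0.23 ± 0.10 (SE; adjusted p = 0.733, limma).

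Of 62 further known interferon targets 39 were tested and none passed the adjusted threshold (17 higher and 22 lower in KO, median -0.045). Ccl5, a chemokine of T cells and NK cells, read 6.72, 7.62, 7.14 and 7.19 in WT kidneys 1 to 4, 6.72, 7.14 and 6.33 in Het kidneys 1 to 3, and 6.06, 6.46, 6.57 and 5.82 in KO kidneys 1 to 4. Every KO value lay below every WT value, as for 3.45% of all tested probes, with a difference of -0.94 ± 0.22 (SE; adjusted p = 0.181, limma). Ccl5 was likewise named for its small p-value in the pathway lists. Psmb10, the remaining inducible subunit of the immunoproteasome, differed by -0.51 ± 0.15 (SE; adjusted p = 0.212, limma), and its further probe by -0.33. In KO against Het the smallest p-values were those of Psme2, a proteasome activator subunit, at -0.40 ± 0.14 (SE; adjusted p = 0.889, limma), the helicase Mov10 at 0.38 ± 0.15 (SE; adjusted p = 0.889, limma) and the ubiquitin ligase Dtx3l at 0.31 ± 0.12 (SE; adjusted p = 0.889, limma).

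Markers of immune and kidney cells were read beside these values, because leukocytes carry many of the same transcripts. Of 10 T and NK cell markers with a probe 5 were detected, and Cd2, Cd4, Cd8a, Klrb1c and Ncr1 were not. Their summed intensity was 201 to 239 in WT, 189 to 208 in Het and 163 to 194 in KO kidneys, and all 5 had lower means in KO (median -0.36). Cd3d, a subunit of the T cell receptor complex, had a KO minus WT difference of -0.55 ± 0.11 (SE; adjusted p = 0.139, limma). Of 11 macrophage and dendritic cell markers 9 were detected, with Flt3 and Itgax not, and their sum was 2030 to 2497 in WT, 1749 to 2207 in Het and 1765 to 2319 in KO kidneys. Of these 9, 8 had lower means than WT in KO (median -0.14) and 8 in Het (median -0.26). For neutrophils 3 of 6 markers were detected, with Camp, Mpo and Ngp not, and the sums were 145 to 183, 130 to 170 and 113 to 147 in the same order. All 3 had lower means in KO (median -0.42). All 3 blood markers with a probe were detected and had lower means in KO (median -0.70). Their sums were 8030 to 20300.5 in WT, 8887 to 16467.5 in Het and 4762 to 16330 in KO kidneys. Their mean level relative to the WT mean ran from -1.44 to 0.66 over the arrays. Of 3 B cell markers with a probe Cd79b and Jchain were detected and Ms4a1 was not, both had higher means in KO (median 0.25), and their summed intensity was 58.8 to 85.7 in WT, 72.9 to 87.8 in Het and 75.6 to 90.4 in KO kidneys. Of 9 detected endothelial markers 7 had higher means in KO (median 0.17), with Kdr not detected and sums of 10513 to 13134 in WT, 11249 to 13206 in Het and 10782 to 13710 in KO kidneys. All 8 tubule and podocyte markers with a probe were detected and 7 had higher means in KO (median 0.11). Their mean level relative to the WT mean was -0.057 to 0.043 in WT, -0.054 to 0.033 in Het and 0.15 to 0.40 in KO kidneys on the log2 scale, so that KO lay above both other genotypes, and their summed intensity was 110398 to 122770, 108415 to 117943 and 114980 to 133424 in the same order. The summed intensities of the genotypes overlapped. Among these markers Aqp2, the water channel of the collecting duct, had a KO minus WT difference of 1.02 ± 0.28 (SE; adjusted p = 0.206, limma). This lay far above the mean of 0.23 and the median of 0.11 over the 8 markers, so Aqp2 raised their mean level.

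None of these markers passed the adjusted threshold, and the part of these cells in the differences of the interferon response genes was not tested.

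Among tested genes in the promoter table, the 13 with an ISRE core had a median KO minus WT difference of -0.10 (2 higher, 11 lower) and the 13 without it -0.069 (5 higher, 8 lower). For the GAS core the 7 genes with it had a median of -0.16 and the 19 without it -0.079. In Het against WT the order for the GAS core was the opposite, with -0.072 for the genes with it and -0.15 for those without it, while the ISRE core gave -0.15 with it and -0.11 without it. These medians stand beside 0.00238 for all genes in KO against WT and -0.00824 in Het against WT, and carry no test.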

How the data were processed

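The authors deposited the intensity of each probe on each array, not normalised between arrays, with a detection p-value per probe and array, per the file headers. A second table deposited by the authors holds processed intensities whose normalisation no label or header states. BeadStudio is named in the submitters' processing notes, without a version. Gene symbols came from the platform annotation: of 45281 probes 34885 had 1 symbol, 18 several and 10378 none. The deposited intensities were background-corrected by normexp (negative controls inferred through detection p, offset 16), quantile normalised and put on the log2 scale with limma 3.58.1 in R 4.3.3. Probes with a detection p-value under 0.05 on at least 3 arrays were fitted with a mean per genotype over all 11 arrays (lmFit and eBayes), and p-values were adjusted by the Benjamini-Hochberg method over all 22856 probes at a threshold of 0.05. The fit was tested on simulated data. The number of arrays limits the precision, and a p-value that misses the threshold does not show that groups are alike. The labels name separate mice, and nothing on litters was used.

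The genes, the roles and the other lists were chosen with earlier results of these data known. Values on every array are given for genes (brightest probe) among the 8 with the largest SD over arrays, the 4 with the highest mean, or the 3 with the smallest p-value in any comparison. From the other pathway lists the 3 smallest p-values per comparison are named, and outside all lists the 10 genes with the highest Pearson correlation with the array score. Slides were read from the array positions in the labels. The alternatives covered background, normalisation, filter, slide, postnatal day, array weights, the arrays fitted, the probes of a gene, and each array left out. The omission of the 3 arrays high in adipose markers was chosen after seeing the data.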

Additional observations from a re-analysis of the deposited data

Results flagged for a closer look

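Among 68 groups of 4 kidneys, the WT and the KO kidneys for each of the 33 tested genes (brightest probe) and for the array score, 3 had a single array far from the other 3 by Dixon's criterion, and chance flags about 1 in 20 groups. For Irf7 WT 4 read 5.08 on the log2 scale, while the other WT kidneys read 5.82 to 5.93. For Stat2 WT 1 read 6.91, while the other WT kidneys read 6.49 to 6.56. For Psmb9 KO 3 read 7.63, while the other KO kidneys read 7.27 to 7.31.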

How the results depend on the processing

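The number of probes past the adjusted threshold in KO against WT, 9 over all probes, was 4 with slide as a block, 0 on slide 2 alone, 0 with postnatal day as a term, 14 with array weights, 0 with the compared genotypes alone and 4 without the 3 arrays high in adipose markers. It was 0 to 15 when 1 array was left out: 15 without WT 3, 3 without KO 1, 1 without WT 4, and 0 without WT 1, WT 2, Het 2, Het 3 or KO 2. The count of 0 in Het against WT became 1 on slide 1 and 8 on slide 2, and 0 to 1 with 1 array left out. The count of 0 in KO against Het became 2 with no background correction, 2 with the authors' processed values, 6 on slide 1 and 8 on slide 2, and 0 to 1 with 1 array left out. On slide 2 the lone Het kidney was assumed to vary like the other groups.

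The median over the 33 genes in KO against WT was 0.055 with a median shift per array, a scaling that moved the median of all genes to 0.11, and the score difference was then -0.000723. It was -0.12 to -0.034 (without WT 3) with 1 array left out and -0.15 without the adipose-rich arrays. In Het against WT the median was -0.034 with that scaling, -0.26 on slide 2, -0.065 without the adipose-rich arrays and -0.18 to -0.066 with 1 array left out. In KO against Het it was 0.15 on slide 2, -0.041 on slide 1, -0.059 without the adipose-rich arrays and -0.013 (without KO 4) to 0.055 (without KO 3) with 1 array left out.

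Some KO minus WT differences of named genes changed sign. With 1 array left out Psmb8 ran from -0.24 to 0.029 (without KO 1), Ifih1 from -0.30 to 0.092 (without KO 1, and 0.051 without WT 3), Irf7 from -0.14 (without WT 4) to 0.17, Ifi27 from -0.037 (without KO 4) to 0.17, and Ifitm3 from -0.17 to 0.0024 (without KO 2). Irf7 was also -0.013 without KO 1 and -0.0077 without KO 2. Psmb8 was 0.055 with the median shift. Without the adipose-rich arrays Psmb8 was 0.11, Ifih1 0.23, Irf7 -0.017 and Ifi27 -0.14. On slide 1 Ifih1 was 0.12, Cxcl10 0.014 and Oasl2 -0.011. As the mean of its probes Oasl2 was -0.079, and Ube2l6 in Het against WT was 0.047. The causes of these changes were not tested. No paired analysis was possible because the replicate numbers only name the mice in the order of their records. Signal close to background limits Ifih1, detected on 9 arrays, Ifna1 and Trim30a, each detected on 7, and the further Cxcl10 probe, detected on 6.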

Other observations

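Trim30a, an interferon-induced member of the TRIM family that was chosen here after its values were seen, was either near 4.3 or above 6.2 on the log2 scale and nothing between. It read 4.34 in WT 4, 4.33 in Het 3, 4.32 in KO 1 and 4.32 in KO 4, where it was not detected. It read 6.29, 6.59 and 6.64 in WT 1 to 3, 6.60 and 6.31 in Het 1 and 2, and 6.77 and 6.52 in KO 2 and 3. Both levels occurred in every genotype and on both slides, and the KO minus WT difference was -0.48 (adjusted p = 0.801, limma).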
